A study of Mus musculus with 16 samples.

Results

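CLIP peaks of undifferentiated female mouse embryonic stem (ES) cells were set against the sites that CTCF occupies on DNA in cells of that stage. The CLIP peaks are taken as RNA contacts of CTCF. Of 16 samples in the series, 5 enter here: 2 CLIP libraries, 2 CTCF ChIP libraries and 1 nuclear RNA-seq library, all of day 0. CLIP recovers RNA that UV light has crosslinked to a protein, and was done here on sonicated, DNase-treated nuclear lysate with anti-FLAG beads; the labels do not name the tagged protein or say how it was expressed. ChIP recovers formaldehyde-crosslinked chromatin and was done with an antibody to CTCF. The CLIP and RNA-seq cells carry the strain label CAST/Ei x 129/Sv/Jae, and the ChIP cells the label 129S1/CastEiJ x 129S1, so the assays are not known to come from a single line. Day 0 cells were adherent and kept in LIF, the cytokine that holds mouse ES cells undifferentiated. The cell type label of ChIP replicate 2 reads "undifferentiating", where that of the RNA-seq library reads undifferentiated. Whether the replicates are separate cultures is not stated.

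CTCF, a protein with many zinc fingers, recognises a long DNA motif at insulators, domain boundaries and some promoters, where it can stop the cohesin complex and so anchor chromatin loops. It also binds RNA, and its RNA contacts have been studied in ES cells in connection with X-chromosome inactivation. The series holds CLIP peaks, taken here as such contacts, and the protein's sites on chromosomes. The question asked of the lists was how close the peaks of each kind lie to each other once the transcript is held fixed.

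CLIP replicates 1 and 2 listed 114016 and 213181 peaks on chromosomes 1 to 19 and X, with median widths of 46 and 38 bp. Of the replicate 1 peaks, 20286 (17.8%) were overlapped on the same strand by a replicate 2 peak, and these are called reproducible CLIP peaks. In the reverse direction 9.78% of replicate 2 peaks were overlapped. ChIP replicates 1 and 2 listed 45377 and 76745 peaks, with median widths of 1964 and 2013 bp. The 32588 replicate 2 peaks that replicate 1 overlapped (42.5% of replicate 2, against 73.0% of replicate 1 in reverse) are called shared ChIP peaks, and the middle of each is its centre. Chromatin was sheared to about 1 to 2 kb, so a centre places the bound site only to within the width of such a fragment, not to a base. Read depth is unknown for all lists. The CLIP libraries made without UV and the ChIP inputs were not analysed here, and the values carry no background from them.

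Transcribed regions were the 40668 rows of the RNA-seq list, each a stranded stretch of the genome that holds 1 or more assembled transcripts, introns included. No rows of the same strand overlapped each other. The row names come from transcript assembly and are not gene symbols, so rows are given by mm9 position. Of the reproducible CLIP peaks, 18507 (91.2%) had their midpoint in a row of their own strand, and these are the peaks described below. Each was given a same-row expectation: the share of the bases of its own row that lie within the stated distance of a ChIP centre, which is the value that unlimited shuffles within the same row would approach. Summed over peaks, this gives the number of peaks expected near a centre. The ratio of observed to expected averages 1 when peaks are spread evenly over the bases of their rows. The ratio can also leave 1 through an uneven spread along rows that has no regard to ChIP centres. Its 95% intervals are exact Clopper-Pearson bounds and cover counting error only; peaks of a row share a transcript and are not replicates. The spread between libraries is given by the 4 pairs of 1 CLIP and 1 ChIP library, which share members.

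CLIP peaks lay slightly less often close to CTCF DNA sites than the bases of their own transcripts did. Within 1 kb of a shared ChIP centre lay 729 of the 18507 peaks (3.94%, 3.66 to 4.23), against 839.7 expected (4.54%), a ratio of 0.868 (0.807 to 0.932). The shortfall grew towards the centre. Within 100 bp lay 59 peaks against 85.1 expected, a ratio of 0.693 (0.528 to 0.894). At 250 bp the ratio was 0.784, at 500 bp 0.826 and at 2 kb 0.921. It closed with distance, to 0.973 at 5 kb, 0.988 at 10 kb and 1.00 at 50 kb. These expectations were over whole rows and did not hold the place along the row fixed. Taken in the same row and class of distance from the start (classes given below), the expectation at 1 kb was 809.7. The ratio to it was 0.9003. No total was worked out with the segment of the row, also described below, held fixed.

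Single libraries showed the same direction at smaller size. CLIP replicate 1 had 5040 peaks within 1 kb of a ChIP replicate 1 centre against 5183 expected (0.972), and 12176 against 12583 for ChIP replicate 2 (0.968). For CLIP replicate 2 the counts were 9370 against 9635 (0.972) and 22266 against 23266 (0.957). Within 100 bp the ratios were 0.815 and 0.916 for CLIP replicate 1, and 0.809 and 0.854 for CLIP replicate 2. So all 4 pairs were below 1 at both limits, and the ratio of the reproducible peaks lay below all 4 of them at both. With shared ChIP peaks the unfiltered CLIP lists gave 0.9495 and 0.947 at 1 kb. Whether the lower ratio of the reproducible list comes from the choice of peaks seen in both libraries was not tested. No test of a difference between conditions was made, since all samples are of 1 condition.

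**Figure D1:**
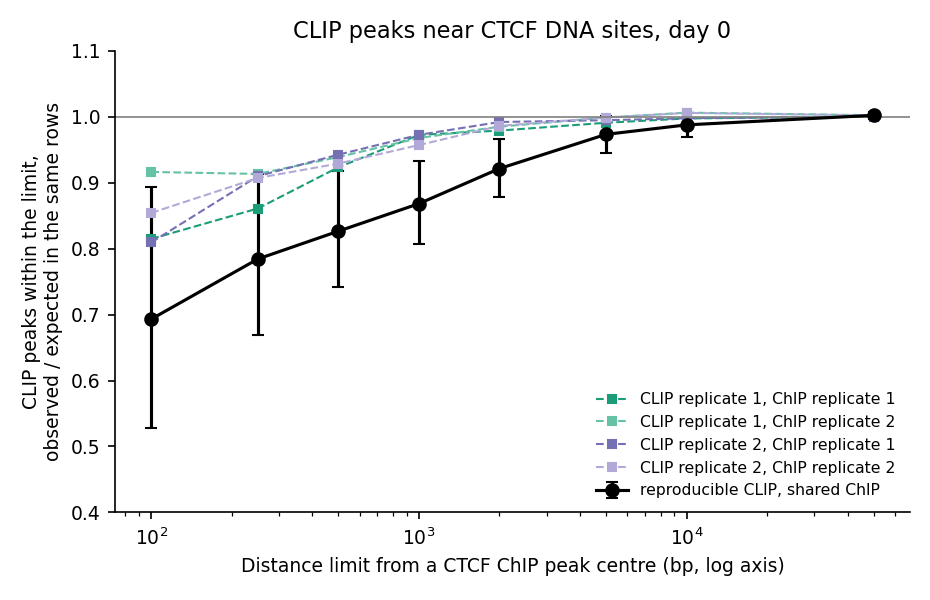
Number of CLIP peaks within a distance of the nearest CTCF ChIP centre divided by the number expected in the same rows (vertical axis, no unit), by distance limit in bp (horizontal, log axis). Black circles are reproducible CLIP peaks with shared ChIP peaks and their 95% counting intervals; coloured squares are the 4 pairs of single libraries. The black line runs from 0.693 at 100 bp to 1.00 at 50 kb, and every pair is below 1 up to 1 kb.

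Most CLIP peaks were far from a DNA site at any rate. The median distance from a reproducible CLIP peak to the nearest shared centre was 15043 bp, against 14984 bp for the bases of the same rows, a ratio of 1.00. Short distances were longer than in the rows, with a 10th percentile of 2432 bp against 2250 bp, and the 75th percentile was shorter, at 31019 bp against 31510 bp. With all ChIP replicate 1 peaks the median was 12198 bp against 11933 bp, and with the longer replicate 2 list 3993 bp against 3947 bp. The median therefore moves with the length of the ChIP list, and the expectation moves with it.

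The outcome turned on what CLIP peaks were compared with. Pooled over all 40668 rows, 3.70% of transcribed bases lay within 1 kb of a shared centre, so the CLIP share of 3.94% was 1.06 times that pooled share. This splits into 2 factors. The rows that hold CLIP peaks, weighted by their peaks, were 1.22 times richer in bases near a centre than all rows. Within those rows CLIP peaks were at 0.868 of the share of bases. Counted by bases without that weighting, 3.76% were near a centre in rows without a reproducible CLIP peak. The share was 3.76% with 1 peak, 3.61% with 2 to 4, 3.49% with 5 to 19 and 3.25% with 20 or more. The first factor depended on the ChIP list. For the 44157 ChIP peaks found in replicate 2 only, the rows with CLIP peaks, weighted likewise, were 2.16 times richer than all rows. The same-row ratio there was 0.965 (0.927 to 1.005), and 0.977 and 0.962 with CLIP replicates 1 and 2 alone. For the 12232 peaks found in replicate 1 only, the factors were 1.06 and 0.972 (0.839 to 1.120). The single CLIP libraries were above 1 there. Their same-row ratios were 1.013 (0.952 to 1.075) for replicate 1 and 1.051 (1.006 to 1.097) for replicate 2.

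Row length went along with the first factor. Rows under 10 kb held 44.6 shared centres per Mb and 68.7 reproducible CLIP peaks per Mb. In rows of 10 to 50 kb these densities were 27.2 and 46.5, in rows of 50 to 200 kb 18.2 and 26.3, and in rows over 200 kb 9.59 and 5.87. Short transcripts were thus denser in both kinds of peak. Among short rows, those with a reproducible CLIP peak were not richer in bases near a centre than their whole class. They had 6.68% near against 7.94% under 10 kb, and 4.99% against 5.49% at 10 to 50 kb. In longer rows they had 3.74% against 3.64% at 50 to 200 kb, and 2.48% against 1.92% over 200 kb. Among rows of at least 10 kb, centre density did not climb with the number of CLIP peaks. The 6713 rows without a reproducible CLIP peak held 16.8 centres per Mb, the 1217 rows with 1 peak 18.5, the 1126 rows with 2 to 4 peaks 17.9, the 761 rows with 5 to 19 peaks 17.2, and the 136 rows with 20 or more 16.1.

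Inside each length class the same-row ratio was 0.965 (0.830 to 1.114) in rows under 10 kb, 0.870 (0.775 to 0.973) at 10 to 50 kb and 0.773 (0.675 to 0.880) at 50 to 200 kb. In rows over 200 kb it was 1.11 (0.803 to 1.493), from 42 peaks against 37.8 expected. That last class was above 1 in all 4 library pairs too, at 1.103 and 1.01 for CLIP replicate 1 and 1.08 and 1.03 for CLIP replicate 2, and each of the other 3 classes was below 1 in all 4.

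Rows that hold a single assembled transcript showed no clear departure from their expectation. They carried 1595 of the reproducible peaks, of which 103 lay within 1 kb of a shared centre against 96.7 expected, a ratio of 1.07 (0.875 to 1.283). Rows of 2 or more transcripts carried 16912 peaks and gave 0.842 (0.779 to 0.910), from 626 peaks against 743.1 expected. In the 4 library pairs single-transcript rows gave 1.00 and 1.04 for CLIP replicate 1 and 0.997 and 0.998 for CLIP replicate 2, against 0.954 to 0.971 in the other rows. The intervals of the 2 kinds of row in the reproducible list overlap between 0.875 and 0.910, and the difference was not tested. For rows that pool several transcripts the list gives the outer bounds only.

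Distance from the transcript start was described next, since CTCF and transcript starts often coincide. The expectation was taken within the same row and the same class of distance from the start. In the reproducible list no departure from the bases there was detectable near starts. Of 1319 peaks up to 1 kb from the start, 86 (6.52%) lay within 1 kb of a shared centre against 82.1 expected, a ratio of 1.05 (0.843 to 1.284). At 1 to 5 kb from the start the counts were 154 of 2711 against 153.1 expected, 1.01 (0.857 to 1.172). Farther in, 199 of 5391 peaks at 5 to 20 kb were near a centre against 244.6 expected, 0.814 (0.706 to 0.932). Beyond 20 kb there were 290 of 9086 against 329.9 expected, 0.879 (0.782 to 0.984).

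Among single libraries the first class ran from 0.984 to 1.01 and the last from 0.976 to 0.989. The class of 1 to 5 kb was at 0.989, 0.993 and 0.996 in the first 3 pairs and at 0.960 (0.927 to 0.993) in CLIP replicate 2 with ChIP replicate 2. The class of 5 to 20 kb was at 1.00 and 0.940 for CLIP replicate 1 and at 0.976 and 0.929 for CLIP replicate 2, so 1 pair of the 4 showed no shortfall there. The choice of expectation mattered most at the start. Against the whole row in place of the same class, peaks up to 1 kb from the start were at 1.16 times the expectation for the reproducible list and 1.14 to 1.17 for the 4 pairs. Bases beside starts are nearer to CTCF sites than the rest of a row, and that excess was gone once CLIP peaks were compared with bases equally close to the start.

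Shared ChIP peaks at starts gave a lower ratio than the others. A centre was at a start when it lay within 1 kb of the start of any row of at least 1 kb, which held for 1711 of the 32588 centres (5.25%). Reproducible CLIP peaks within 1 kb of these numbered 63 against 93.1 expected in the same rows, a ratio of 0.676 (0.520 to 0.865). This expectation was over whole rows, and the distance from the start was not held fixed. The ratio therefore cannot separate nearness to these centres from how CLIP peaks are spread along their rows. Around the other 30877 centres there were 666 against 746.9 expected, 0.892 (0.826 to 0.961). The gap was in the same direction with all ChIP replicate 1 peaks (0.701 and 0.914) and with all replicate 2 peaks (0.859 and 0.943). Among the ChIP peaks found in replicate 2 only there was no gap, at 0.966 around the 1676 centres at starts and 0.965 around the others. The difference was not tested.

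Along transcript bodies the 2 kinds of peak were spread differently. ChIP centres were counted over all rows of at least 10 kb, with or without a CLIP peak, so the 2 profiles cover unlike sets of rows. In rows of at least 10 kb, 19.8% of the 15793 reproducible CLIP peaks were in the last of 10 equal segments of the row, against 8.24% to 9.50% in each of the other 9. The rise at the end was smaller in the single libraries, at 14.5% in replicate 1 and 12.3% in replicate 2. Shared ChIP centres were more even, with 11.1% of 11472 in the first segment, a low of 8.58% in the fourth and 11.99% in the last. A centre in rows of both strands was counted once in each, so 11472 is not a number of distinct centres. Reproducible CLIP peaks and shared centres were thus both most frequent in the last segment. The last was also highest for all ChIP replicate 1 centres, at 11.5%. For all ChIP replicate 2 centres the first segment was highest, at 11.4% against 10.5% in the last. For each segment the expectation was taken within the same row and the same segment. Within the last segment reproducible CLIP peaks and shared centres did not meet more often than expected. There 103 CLIP peaks were near a centre against 125.2 expected, 0.822 (0.673 to 0.994). The first segment was at 0.770 (0.557 to 1.036), from 42 peaks against 54.5 expected. Over the other segments the ratio ran from 0.684 in the fourth to 1.32 in the eighth, with 26 to 71 peaks near a centre in each. The interval of the fourth was 0.448 to 0.998 and that of the eighth 1.005 to 1.692. In the 4 library pairs the eighth segment was at 1.089, 1.013, 1.019 and 1.037, and the fourth at 1.072, 0.996, 1.0004 and 0.930, so of these 2 segments only the eighth kept to 1 side of 1. In the 2 CLIP libraries with shared ChIP peaks the first segment was at 0.909 and 0.899 and the last at 0.942 and 0.949. Against whole rows in place of the same segment, the reproducible list was at 0.701 in the first segment. It was at 0.457 in the fourth, 1.01 in the eighth and 0.741 in the last.

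**Figure D2:**
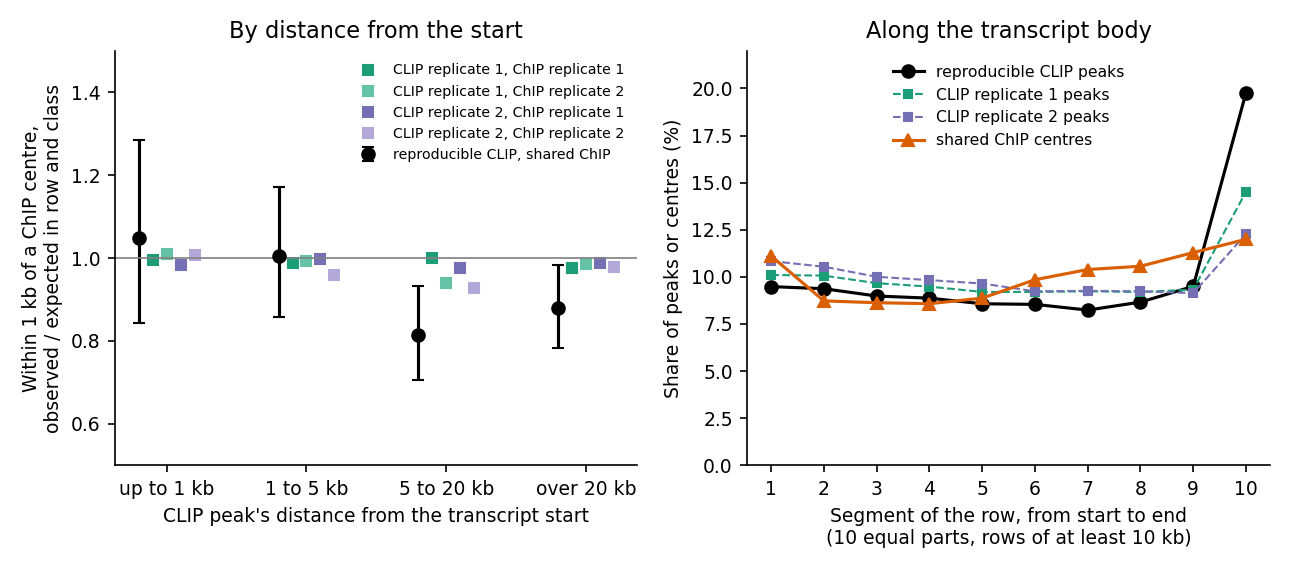
Left: ratio of observed to expected CLIP peaks within 1 kb of a ChIP centre (no unit), by distance of the CLIP peak from the transcript start, with 95% counting intervals for the reproducible list (black) and the 4 library pairs (coloured). Right: share (%) of CLIP peaks and of shared ChIP centres in each of 10 equal segments of rows of at least 10 kb. Centres are counted over all such rows, with or without a CLIP peak. Ratios near the start lie around 1 (1.05 up to 1 kb), and 19.8% of reproducible CLIP peaks against 11.99% of ChIP centres fall in the last segment.

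CLIP peaks were split about evenly over the sides of a DNA site. Of the reproducible peaks within 5 kb of a shared centre, 1854 lay downstream of it in the direction of transcription and 1892 upstream, so 49.5% were downstream (47.9 to 51.1), against 50.003% for the bases of the same rows. In the 2 single CLIP libraries the downstream share with shared ChIP peaks was 50.2% and 50.4%, against 50.8% and 50.7% expected. In the closest 250 bp the upstream side held 69 reproducible peaks against 101.3 expected (0.681), and the downstream side 96 against 108.6 (0.884). This lean was not steady between libraries. In the 4 pairs the upstream ratio there was 0.847, 0.898, 0.912 and 0.913, and the downstream ratio 0.873, 0.929, 0.908 and 0.901. Both sides were below 1 in every pair.

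**Figure D3:**
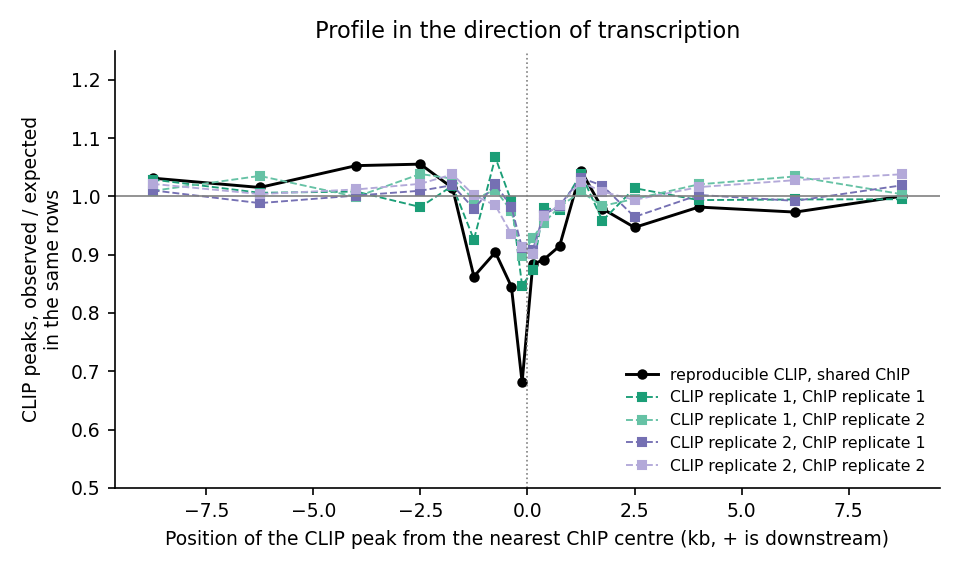
Ratio of observed to expected CLIP peaks (no unit) in bins of distance from the nearest ChIP centre, in kb along the direction of transcription, for reproducible CLIP with shared ChIP peaks (black) and for the 4 library pairs (coloured). The lowest black point is the closest upstream bin, at 0.681, and all 4 pairs are below 1 in both bins that touch the centre.

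The authors' scores gave no order of nearness that all lists shared. With the shared ChIP peaks in 4 equal groups by score, from lowest to highest, the ratio was 0.870, 0.865, 0.869 and 0.867. With the reproducible CLIP peaks in 4 such groups it was 0.834, 0.873, 0.880 and 0.886, and these 4 intervals overlap (lowest bound 0.716, highest 1.018). Other lists ran differently. All CLIP replicate 2 peaks with shared ChIP peaks gave 1.003 (0.957 to 1.050), 0.929, 0.982 and 0.882 (0.842 to 0.923) from the lowest to the highest CLIP score, a fall where the reproducible list rose. Reproducible CLIP peaks with all ChIP replicate 2 peaks gave 0.980, 0.989, 0.859 and 0.851 from the lowest to the highest ChIP score. By FPKM, the abundance of a transcript for its length and the depth of its library, rows were split at 7.52, 12.03 and 23.6, and the ratio was 0.752, 0.835, 0.856 and 0.915 from the lowest to the highest group of rows. Peaks were unevenly spread over these groups, with 1903 in the lowest and 7382 in the highest. The interval of the lowest group (0.577 to 0.961) and that of the highest (0.822 to 1.015) overlap. Single libraries did not share this rise. With shared ChIP peaks CLIP replicate 1 gave 0.928, 0.927, 0.955 and 0.959, and CLIP replicate 2 fell from 1.007 through 0.955 and 0.939 to 0.938.

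The reproducible list varied more between chromosomes than the longer lists of single libraries did. It had 5 to 73 near peaks per chromosome, and counting error is larger in a shorter list. The intervals of chromosomes 5, 16 and X lay below 1, and those of the others included 1. The ratio was below 1 on 17 of 20 chromosomes, and on 13, 14, 16 and 17 of 20 in the 4 library pairs. Chromosomes 1, 8 and 9 were above 1, at 1.12, 1.18 and 1.17. Chromosome 19 was at 0.621 (0.349 to 1.017) and chromosome 5 at 0.640 (0.448 to 0.884). The lowest was chromosome 16, with 5 peaks near a centre against 19.7 expected (0.254, 0.083 to 0.590). There the 4 library pairs gave 0.959, 0.869, 0.949 and 0.903.

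The X chromosome, where RNA contacts of CTCF have drawn most attention in female cells, held 1253 of the tied peaks. Near a shared centre lay 39 of them (3.11%) against 62.7 expected (5.004%), a ratio of 0.622 (0.444 to 0.845). On autosomes the counts were 690 of 17254 against 777.0 expected, 0.888 (0.824 to 0.955). X did not stand apart from single autosomes, since chromosomes 5, 16 and 19 were close to it or lower. X was below the autosomes in each library pair, at 0.869 and 0.914 against 0.978 and 0.970 for CLIP replicate 1, and at 0.920 and 0.952 against 0.975 and 0.957 for CLIP replicate 2. In all 4 pairs the autosomal ratio lay inside the counting interval of X, which ran from 0.761 to 0.987 for the first pair and from 0.9001 to 1.006 for the last. No test was made of this gap. Against all transcribed bases of the same chromosome the picture was the reverse, with X at 1.23 and autosomes at 1.07. Weighted by their peaks, the X rows with CLIP peaks were 1.98 times richer in bases near a centre than all X rows. Autosomal ones, weighted likewise, were 1.20 times richer than all autosomal rows.

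**Figure D4:**
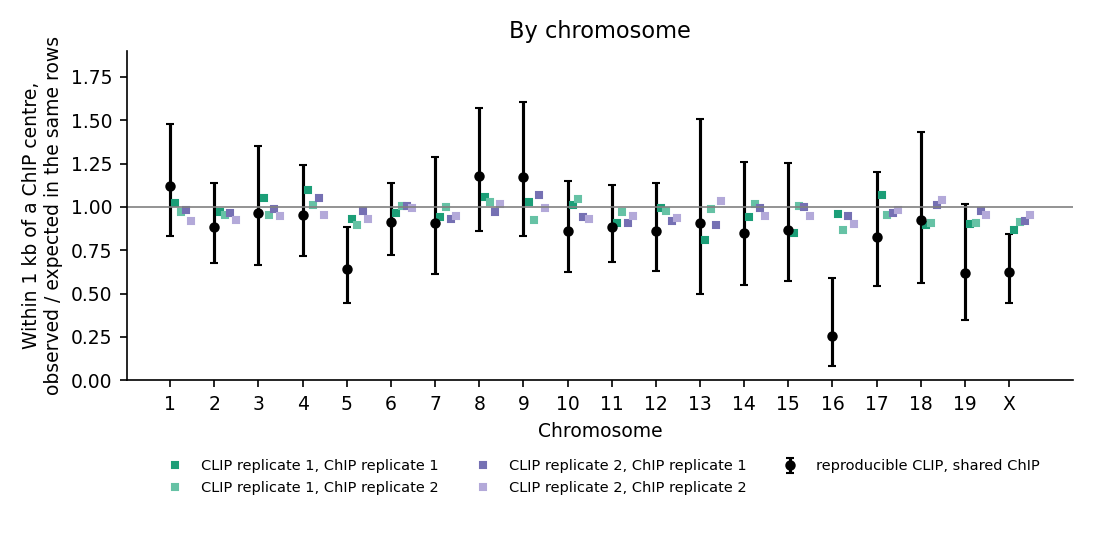
Ratio of observed to expected CLIP peaks within 1 kb of a ChIP centre (no unit) by chromosome, with 95% counting intervals for reproducible CLIP and shared ChIP peaks (black circles) and the values of the 4 library pairs (coloured squares). Chromosome 16, at 0.254, and X, at 0.622, are among the lowest black points, while their squares lie between 0.869 and 0.959.

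Rows and DNA sites were also counted by whether they held a near peak. Of 4330 rows with a reproducible CLIP peak, 2328 had any base within 1 kb of a shared centre, and 438 had a peak there. In 187 rows at least 1 near peak was expected. More than expected were found in 51 of these and fewer in 120, of which 55 had none. In the remaining 16 every base was near a centre, so that no other outcome was possible. A count is whole and an expectation is not. In rows that expect little over 1, fewer is therefore the commoner outcome for evenly spread peaks too. The split those would give was not worked out, so 51 against 120 is a description only. Seen from the DNA, 12671 of the 32588 shared centres (38.9%) lay in a listed row. A reproducible CLIP peak of either strand lay within 1 kb of the centre at 536 of the 32588 shared ChIP peaks. Of those 536 sites, 391 had exactly 1 and 18 had 5 or more. The number expected from the sizes of the lists was not worked out for these sites or for the 438 rows.

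The 12 rows with the most near peaks were chosen for that count, so their values are a description. The first was the 15167 bp row chr6:122677827-122692993 on the minus strand, listed at an FPKM of 78.7, with 41 reproducible peaks. Near its 2 shared centres lay 16 of them against 8.74 expected, 20 of 50 in CLIP replicate 1 and 29 of 74 in replicate 2. One of its centres was 232 bp from the 3′ end of the row, where CLIP peaks were dense. In chr3:65183577-65196545, also on the minus strand, the only centre was 654 bp from the 3′ end, and 9 of 12 reproducible peaks were within 1 kb of it against 1.53 expected. The single libraries had 11 of 21 and 12 of 24 there, against 2.68 and 3.06 expected. That ChIP peak, chr3:65182975-65185488, stood at rank 3802 of the 32588 by score.

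Another row ends in the same way. In chr15:79908211-79913836 on the minus strand, 6 of 9 peaks were near a centre that lies 767 bp from the 3′ end, against 3.26 expected. The single libraries were on opposite sides there, with 10 of 18 near against 6.52 expected in CLIP replicate 1 and 9 of 29 against 10.5 in replicate 2. In other rows the centre was inside the body. The plus-strand row chr1:34068670-34365495 spans 296826 bp and had 6 of 26 peaks near 1 of its 5 centres against 0.919 expected, with 10 of 116 and 22 of 219 in the single libraries against 4.10 and 7.74. In chr1:59741853-59768968 on the plus strand 9 of 27 peaks were near a centre against 3.98 expected, and in chr2:165638827-165652933, also on the plus strand, 6 of 21 against 2.98.

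Several of the 12 rows were close to their expectation. The row chr3:41359634-41420784 on the plus strand had 89 peaks, of which 8 were near against 8.74 expected. In chr6:38501302-38559486 on the plus strand it was 8 of 63 against 10.7 expected, and in chr4:126698550-126714695 on the plus strand 6 of 50 against 6.197. The row chr11:50191184-50200030 on the plus strand had 8 of 20 against 7.51, and chr6:51409793-51420059 on the minus strand 6 of 27 against 5.26. Farther above its expectation was the 5877 bp row chr10:80639376-80645252 on the plus strand, with 10 of 21 against 7.15. It was listed at an FPKM of 190.3, and the single libraries had 14 of 33 and 18 of 35 near against 11.2 and 11.9.

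At the other end stood 8 rows of at least 10 kb with 3 or more shared centres, many CLIP peaks and none of the reproducible ones within 1 kb of a centre, chosen for that absence. The row with the most CLIP peaks, chr6:33199085-33923979 on the plus strand, had 52 peaks over 724895 bp and 7 centres. Its nearest peak was 1241 bp from a centre, but only 1.00 near peak was expected. In chr4:123026959-123361603 on the minus strand 38 peaks lay among 12 centres with none near against 2.73 expected, and the nearest was 1613 bp away. In chr12:8680623-8759387 on the plus strand it was 0 of 29 against 2.21, and in chrX:155964620-156031013 on the plus strand 0 of 28 against 3.38.

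The single libraries did place some peaks near the centres of these rows. In the row on chromosome 4 there were 9 of 180 near peaks in CLIP replicate 1 against 12.9 expected, and 13 of 354 in replicate 2 against 25.4. In the row on chromosome 12 there were 2 of 74 against 5.64 and 1 of 154 against 11.7. The X row had 1 of 44 against 5.30 and 11 of 152 against 18.3, and the first row of this group 4 of 260 against 5.02 and 12 of 491 against 9.49. The row chrX:126284208-127000370 on the plus strand, also of this group, had 3 of 202 against 1.69 and 4 of 374 against 3.13, above its expectation in both. The reproducible list comes from these same libraries, so their counts are not independent of the choice of rows.

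**Figure D5:**
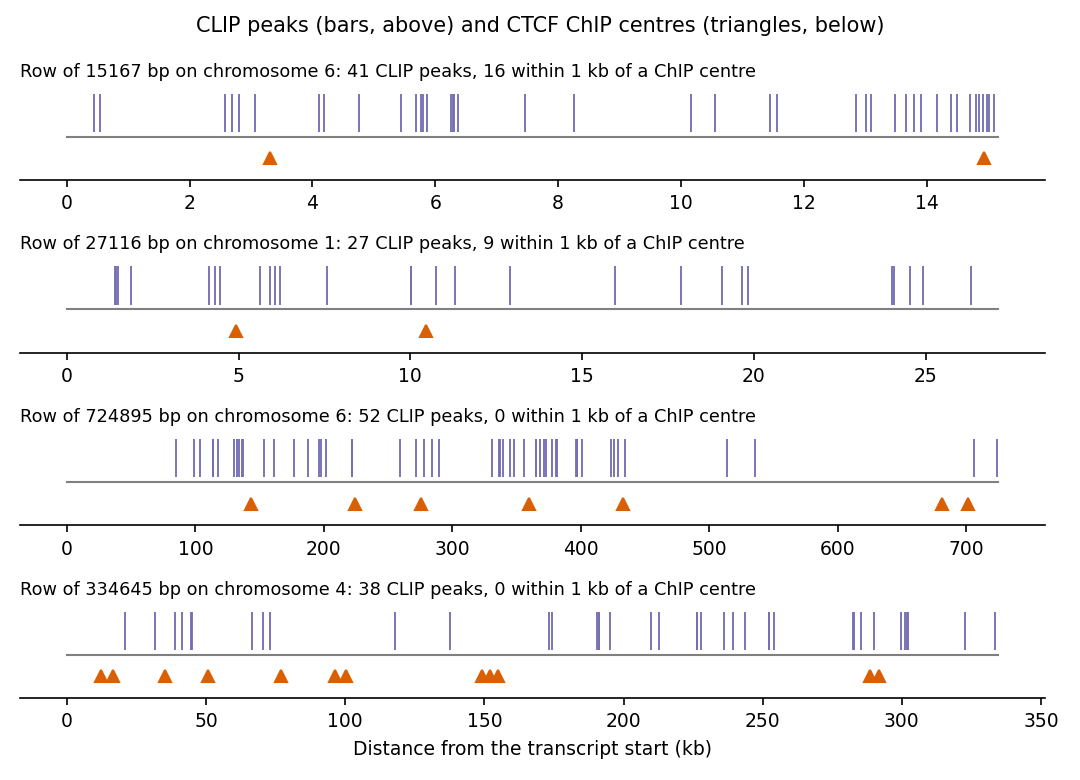
Positions of reproducible CLIP peaks (bars above each line) and shared CTCF ChIP centres (triangles below) along 4 rows, in kb from the transcript start, each row on its own scale. The upper pair was chosen among rows with the most CLIP peaks near a centre, with 16 of 41 and 9 of 27, and the lower pair among rows with none, with 0 of 52 and 0 of 38.

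The DNA sites with the most CLIP peaks around them repeat these rows. The ChIP peaks chr10:80641435-80643374 and chr6:122676520-122679599 had 10 reproducible CLIP peaks each within 1 kb of the centre, followed by the chromosome 3 site above with 9. Next came chr11:50192877-50194132, chr6:38507858-38510129 and chr9:96987810-96989847 with 7 each. The site on chromosome 9 lies in no listed row; all 7 CLIP peaks were on the minus strand, and the single libraries had 7 and 12 there. The last of the 8 sites were chr2:165643949-165647974 and chr15:79905462-79912495, with 6 each. At all 8 sites the reproducible CLIP peaks were on 1 strand. By score they ranked from 3802 to 32545 of 32588.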

How the data were processed

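Peak lists of each library and the transcript list of day 0 were used as the authors deposited them, in build mm9. The submitters' processing notes name Cufflinks 2.1.1, TopHat2 2.0.8 and Novoalign 3.00.03, and further bedtools 2.17.0, SAMtools 0.1.18, cutadapt 1.0 and Trim Galore 0.3.3, without saying what each did; no source used here names the program that found the peaks. The score of a peak is the authors' own value, and was used only to rank peaks within a list. The value deposited with each transcript row was taken as FPKM, the unit Cufflinks reports; the files do not name it, and rows that pool transcripts hold a single value.

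Groups came from the labels; "d0 ChIP", which carries no number, is ChIP replicate 1. An overlap of 1 bp made 2 peaks shared, and CLIP and ChIP peaks were reduced to midpoints. Expectations were counted exactly from the bases of each row. The counting was checked base by base on a small simulated genome. For the reproducible CLIP peaks and shared centres it was checked against seeded shuffles within rows. Python 3.11.15, NumPy 2.4.6, pandas 2.3.3, SciPy 1.17.1 and matplotlib 3.10.9 were used. No test was planned or made. Rows and sites named were the 12 rows with the most reproducible CLIP peaks within 1 kb of a shared centre, the 8 rows of at least 10 kb with 3 or more shared centres, none near and the most CLIP peaks, some of which are printed, and the 8 ChIP peaks with the most CLIP peaks. The comparisons, lists and rules were chosen with earlier results of these data known. Gene lists, ES cell markers and sequences needed gene names or sequence of build mm9 and were not used here, so the labelled cell type was not checked. Alternatives covered both peak lists, the distance, the scores, the overlap, FPKM, row length, the shuffle space and leaving out each library.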

Additional observations from a re-analysis of the deposited data

How the results depend on the processing

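The share of CLIP peaks within 1 kb of a centre over its same-row expectation (0.868) turned above 1 under 2 alternatives: 1.06 against all transcribed rows pooled in place of the same row, and 1.07 in rows of a single transcript, the latter chosen after seeing the data. Leaving out a library in turn gave 0.891 to 0.9495, and a limit of 250 bp, also added later, 0.784. Under the other alternatives it stayed between 0.826 (500 bp) and 0.921 (2 kb), and was 0.9003 with the expectation taken in the same row and start class, 0.881 without the 10 rows with the most peaks and 0.879 for peaks inside a ChIP peak; the last 2 were added later. The ratio of median distances (1.00) was 0.995 to 1.02 when leaving out a library and 1.01 with the shared list taken from ChIP replicate 1, shifts above its SD of 0.0012 over the library pairs. The ratio at 5 to 20 kb from the start was 0.957 and 0.942 with a single CLIP library. Ratios up to 1 kb from the start, in the first of 10 segments, and the downstream share moved by less than their counting interval. No paired analysis was possible because all samples are of day 0, no groups of samples are compared and CLIP and ChIP libraries are different assays. Read depth is unknown, so peaks missing from a list cannot be told from peaks below detection.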

Other observations

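Some reproducible CLIP peaks lay outside the transcript rows. Outside all rows were 1710 of 20286 (8.43%), and 84 of these (4.91%, exact 95% interval 3.94 to 6.05) were within 1 kb of a shared ChIP centre, with a median distance of 16745 bp. In the single libraries 14.7% and 14.6% of peaks were outside all rows, and 5.05% and 4.44% of those were near a centre. A further 69 reproducible peaks lay only in a row of the other strand, and 5 of them were near a centre (7.25%, 2.39 to 16.1). No same-row expectation exists for either class.

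Around the ChIP peaks found in replicate 1 only, the side of the CLIP peaks differed between lists. Within 5 kb of these centres 53.5% of reproducible CLIP peaks were downstream (50.4 to 56.7; 531 of 992) against 47.0% expected in the same rows. CLIP replicate 1 alone gave 51.2% against 49.2% expected, and CLIP replicate 2 alone 49.4% against 49.4%. The difference was not tested.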
